A study of Homo sapiens with 4 samples.

Results

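MYC and 38 genes of ribosome biogenesis were followed in HT-29 and NCM460 cells with and without sturgeon chondroitin sulfate (SCS). The members were taken by gene name from a list of 39 that was chosen with earlier results of these data known. All 39 were found among the 18650 loci of the deposited table. RNA was sequenced in 4 libraries. HT-29, a human colorectal adenocarcinoma line, was either left untreated or exposed for 24 h to SCS at a dose of 100 μg/mL, and so was NCM460, the colon epithelial line used as the normal counterpart. SCS is a sulfated glycosaminoglycan from the cartilage of a hybrid sturgeon. Each condition had 1 library, so no difference between conditions within a line has a replicate check, and none was tested. Both lines are single cell lines, and differences between them hold for these lines alone. The paper grew NCM460 in medium with more serum than HT-29, so differences between the lines cannot be told apart from differences in serum.

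Ribosomes are assembled in the nucleolus, where RNA polymerase I transcribes a long precursor of ribosomal RNA. Small nucleolar ribonucleoprotein particles (snoRNPs) modify this precursor, and assembly factors cut and fold it into the small (40S) and large (60S) subunits. MYC is a transcription factor that binds DNA with its partner MAX, often at the E-box, and is known to raise the transcription of many of these genes in dividing cells. The members were grouped by role into MYC, 6 genes of RNA polymerase I and its factors, 5 abundant nucleolar proteins, 3 core proteins of the box C/D snoRNPs, 4 of the box H/ACA snoRNPs, 9 genes of the small-subunit processome and 40S maturation and 11 genes of 60S maturation.

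The libraries held between 1156568 and 1654764 fragments. The mitochondrial genome took 35.8% of them in untreated and 13.8% in treated HT-29 cells, and 62.3% in untreated and 46.3% in treated NCM460 cells, and between 507692 and 1383424 nuclear fragments were left. Of the epithelial markers, EPCAM, KRT8, KRT18 and CDH1 were detected in all 4 libraries. KRT20, VIL1, LGALS4 and the secretory marker LYZ were detected in HT-29 cells and had no fragment in either NCM460 library. CDX1 was at 0 in all 4 libraries, CDX2 was at 0 in HT-29 cells and had 14 and 12 fragments in NCM460 cells, and the leukocyte genes PTPRC and CD3E were at 0 throughout. Levels are given as whole fragments and as fragments per 1e6 library fragments (CPM), scaled by edgeR's trimmed mean of M values (TMM), and log2 fold changes (log2FC) are SCS over control with a 95% Clopper-Pearson interval in parentheses that covers the error of counting alone. Loci that differed over 1.5-fold with an interval that left out 0 were called. Calls by the FPKM that the authors deposited rest on the 1.5-fold limit alone, without an interval. All 39 members reached the minimum of 1 CPM over both libraries of each line. A level here is a share of a library, so fewer cells with a transcript and less of it per cell cannot be told apart.

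The members spanned a wide range of levels. By the authors' FPKM, which are per length, NPM1 ranked 1 of the 39 members in the HT-29 control with 202 FPKM, followed by NCL with 98.6, FBL with 92.2, NOP56 with 68.6, NHP2 with 57.9 and MYC with 51.1 FPKM. The median member was at 13.3 FPKM and the lowest, POLR1E, at 3.15 FPKM. In the NCM460 control FBL had 212 FPKM, NPM1 209, MYC 173 and NHP2 152 FPKM, with a median of 23.9. NPM1 and NCL encode abundant nucleolar phosphoproteins, and FBL is the methyltransferase of box C/D snoRNPs. Depth was lowest in the NCM460 control, where 17 of 39 members had under 20 fragments, against 1 in untreated and 4 in treated HT-29 cells and 5 in treated NCM460 cells.

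**Figure D1:**
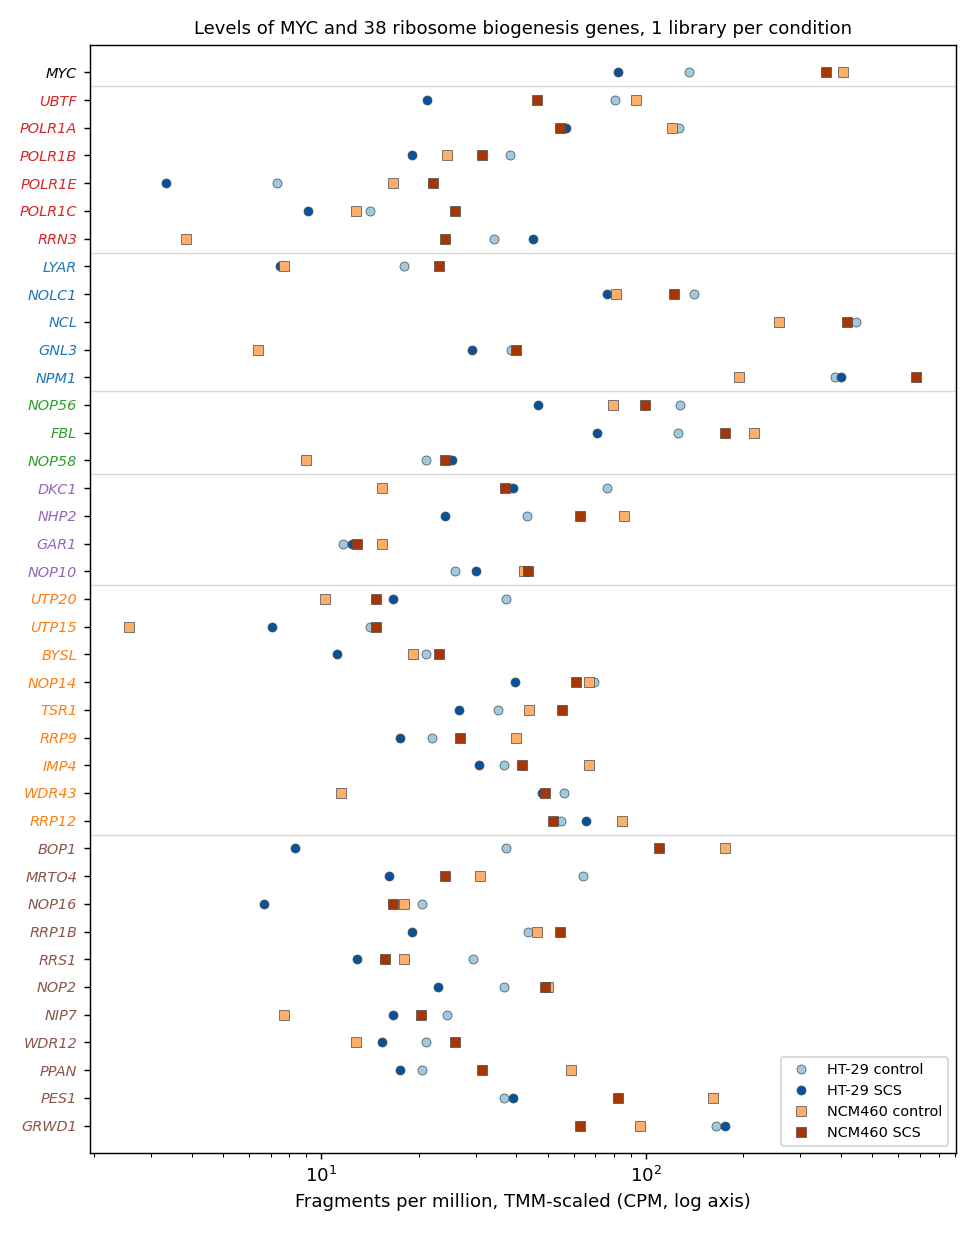
Level of each member in the 4 libraries, in TMM-scaled CPM on a log axis, with circles for HT-29 and squares for NCM460 cells, light for control and dark for SCS. Gene names are coloured by role, from top to bottom MYC, RNA polymerase I, nucleolar proteins, box C/D, box H/ACA, small subunit and 60S, and the dark circle lies to the left of the light one for 31 of 39 members.

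In HT-29 cells MYC and many of the genes that build ribosomes were lower with SCS, and no member was called higher. MYC (ENSG00000136997; chr8:127735434-127741434, GRCh38) had 278 fragments untreated and 197 with SCS, or 136 and 82.0 CPM. Its log2FC was -0.72 (-1.0 to -0.46). That call was lost with scaling to total fragments only (-0.45) and with libraries thinned to equal nuclear depth (-0.44). Of the 39 members 21 were called lower (53.8%), where 14.8% of the 12168 loci tested were called lower, and 0 were called higher, where 16.8% of all loci were. The list was chosen with earlier results of these data known, so these shares describe the members and do not test them. The median log2FC of the members was -0.79, against 0.07 over all loci tested, and 31 members were below 0. Each role held lower genes. They were 3 of 6 genes of RNA polymerase I, 3 of 5 nucleolar proteins, 2 of 3 box C/D proteins, 2 of 4 box H/ACA proteins, 4 of 9 small-subunit genes and 6 of 11 genes of 60S maturation. Taken as a sum, the members made up 0.528% of nuclear fragments in the control (Wilson 95% interval 0.514 to 0.542) and 0.325% with SCS (0.315 to 0.334). The share of mitochondrial fragments was lower in the same library, at 13.8% against 35.8%, and its part in the result was not tested. With the library total taken over nuclear fragments alone, 22 members were lower in HT-29 cells, and with the library total alone and no composition factor, 13. Over all loci, 2308 of 13330 were called lower with nuclear totals and 1116 of 12658 with the library total alone.

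**Figure D2:**
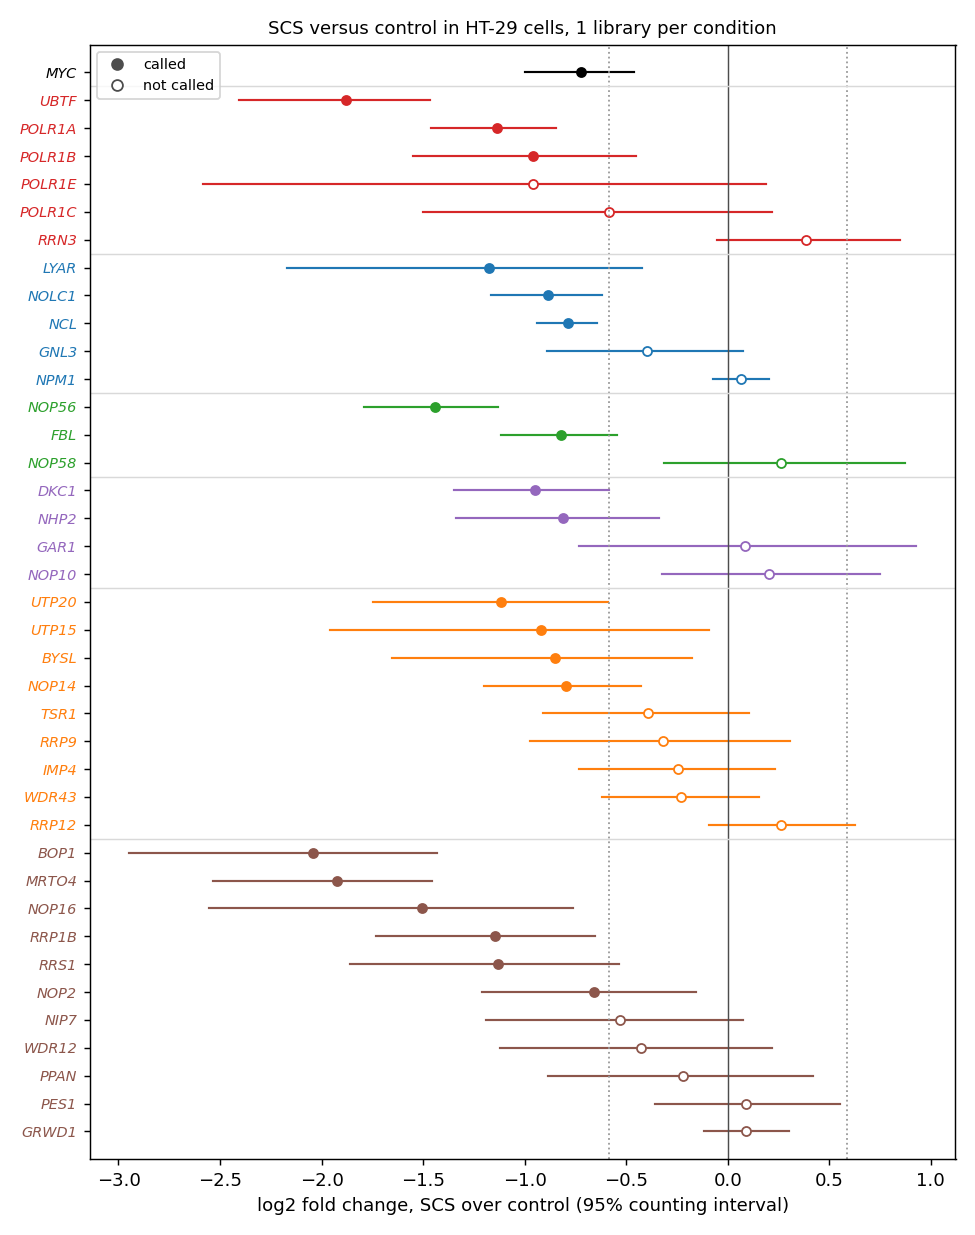
Log2 fold change of each member in HT-29 cells, SCS over control, with 95% counting intervals and gene names coloured by role as in the plot of levels. Filled points were called, dotted lines mark a change of 1.5-fold either way, and all 21 filled points lie to the left of 0, from NOP2 at -0.66 to BOP1 at -2.04.

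Within RNA polymerase I, the lowest values in HT-29 cells were those of UBTF and POLR1A. UBTF (ENSG00000108312; chr17:44205033-44221626), which binds ribosomal DNA and bends its promoter, had 165 fragments untreated and 51 with SCS, or 80.6 and 21.2 CPM, a log2FC of -1.88 (-2.41 to -1.46). POLR1A, the largest subunit of the enzyme, had 259 and 137 fragments, or 127 and 57.0 CPM, a log2FC of -1.14 (-1.46 to -0.85). POLR1B, the second largest subunit, had 78 and 46 fragments, a log2FC of -0.96 (-1.55 to -0.45). Both catalytic subunits and the promoter factor were thus called lower, POLR1B not when libraries were thinned to equal nuclear depth. POLR1C and POLR1E, smaller subunits with 29 and 22 and with 15 and 8 fragments, were not called. RRN3, which couples the polymerase to its promoter, was the highest of all members in HT-29 cells, with 70 and 108 fragments and a log2FC of 0.38 (-0.05 to 0.85), and was not called. The locus of RRN3 is listed on an alternate scaffold, as is that of FBL.

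The nucleolar proteins differed among themselves in HT-29 cells. NCL, or nucleolin, had 909 fragments untreated and 617 with SCS, or 444 and 257 CPM, a log2FC of -0.79 (-0.94 to -0.64). NOLC1, a chaperone of snoRNPs, had 289 and 183 fragments, a log2FC of -0.88 (-1.17 to -0.62). LYAR had 37 and 18 fragments, a log2FC of -1.18 (-2.17 to -0.42), a call lost after the same thinning. NPM1, or nucleophosmin, stood apart from these: it had 784 and 962 fragments, or 383 and 400 CPM, and its log2FC was 0.06 (-0.07 to 0.20), an interval that lies within the limits of 1.5-fold. GNL3, a nucleolar GTPase, had 79 and 70 fragments and was not called at -0.40 (-0.89 to 0.08).

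Of the box C/D proteins, NOP56 had 262 fragments in the HT-29 control and 112 with SCS, or 128 and 46.6 CPM, a log2FC of -1.44 (-1.79 to -1.13). The NOP56 locus carries the same values as MIR1292, SNORA51 and SNORD110, which lie within it and cannot be told apart from it. FBL had 257 and 170 fragments, a log2FC of -0.82 (-1.12 to -0.54). NOP58, the partner of NOP56 in the particle, had 43 and 61 fragments and a log2FC of 0.26 (-0.31 to 0.87), and was not called. The box H/ACA particle, which converts uridine to pseudouridine, was also split. Its catalytic protein DKC1, or dyskerin, had 156 and 94 fragments, a log2FC of -0.95 (-1.35 to -0.58), and NHP2 had 88 and 58, a log2FC of -0.81 (-1.34 to -0.34), which was not called after thinning or by total fragments only. The small proteins GAR1 and NOP10 had 24 and 30 and 53 and 72 fragments, with log2FCs of 0.08 and 0.20, and neither was called.

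On the path to the 40S subunit, UTP20, UTP15, BYSL and NOP14 were called lower in HT-29 cells. UTP20, a large scaffold of the processome, had 76 fragments untreated and 40 with SCS, a log2FC of -1.12 (-1.75 to -0.59). UTP15 had 29 and 17 fragments, at -0.92 (-1.96 to -0.09), BYSL 43 and 27, at -0.85 (-1.65 to -0.18), and NOP14 142 and 95, at -0.80 (-1.20 to -0.43). The call of UTP15 was lost by total fragments only and by the deposited FPKM. Those of BYSL and NOP14 were lost by total fragments only. The 5 other small-subunit members, TSR1, RRP9, IMP4, WDR43 and RRP12, lay between -0.39 and 0.26 and were not called.

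BOP1 and MRTO4, of the 60S path, had the lowest values of all members in HT-29 cells, followed by UBTF. BOP1, a subunit of the PeBoW complex that processes the large-subunit rRNA, had 76 fragments untreated and 20 with SCS, or 37.1 and 8.32 CPM, a log2FC of -2.04 (-2.95 to -1.43). MRTO4, which acts in assembly of the ribosomal stalk, had 131 and 39 fragments, or 64.0 and 16.2 CPM, a log2FC of -1.92 (-2.53 to -1.45). NOP16 had 42 and 16 fragments, a log2FC of -1.5 (-2.55 to -0.76). RRP1B, at -1.15, RRS1, which helps bring in the 5S particle, at -1.13, and NOP2, an rRNA methyltransferase, at -0.66, completed the 6 called lower. The other subunits of PeBoW did not share the level of BOP1: PES1 had 75 and 94 fragments, a log2FC of 0.09 (-0.36 to 0.55), and WDR12 had 43 and 37, at -0.43 (-1.12 to 0.22). The FPKM of WDR12, 8.10 and 1.68, were further apart than its fragments. GRWD1, a chaperone of a ribosomal protein and of histones, is listed with the same values as its neighbours KCNJ14, CYTH2 and CTC-273B12.7 and cannot be told apart from them. This locus had 337 and 422 fragments and was not called at 0.09 (-0.12 to 0.30). NIP7 and PPAN were not called either, at -0.53 and -0.22.

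Promoters of 31 members were in RefSeq's table for GRCh38.p14, from 250 bases before to 50 bases after the start site, and were searched for the E-box CACGTG, which reads the same on both strands. The members without an entry were MYC, NOP58, NOLC1, BOP1, RRP1B, RRP12, RRS1 and POLR1E. The E-box was in 14 of the 31 genes (45.2%), against 8.77% of the 27305 genes of the table and 12.7% of the 9325 genes of loci tested in HT-29 cells. By promoter it was in 14 of 40 windows (35%) and in 7.26% of all 35116. Members called lower in HT-29 cells held it in 7 of 16 cases (43.8%) and the others in 7 of 15 (46.7%), so its presence did not separate the 2 sets of members. A match is a run of letters and not a measured binding site. The windows of MRTO4 and LYAR are shown as the 2 members with the largest falls among those with a match, NOP10 as a member with 2 matches that was not called, RRN3 as the member with the highest value in HT-29 cells, and POLR1A as a member called lower in both lines. NOP10 and POLR1A were chosen after their values were seen. The E-box is in capitals.
MRTO4, chr1:19251555-19251854, plus strand: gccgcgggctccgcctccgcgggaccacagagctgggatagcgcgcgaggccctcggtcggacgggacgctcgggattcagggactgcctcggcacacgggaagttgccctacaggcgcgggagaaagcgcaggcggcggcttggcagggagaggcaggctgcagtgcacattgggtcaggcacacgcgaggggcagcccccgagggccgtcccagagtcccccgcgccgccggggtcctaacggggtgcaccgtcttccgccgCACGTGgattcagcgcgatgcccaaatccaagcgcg
LYAR, chr4:4289972-4290271, minus strand: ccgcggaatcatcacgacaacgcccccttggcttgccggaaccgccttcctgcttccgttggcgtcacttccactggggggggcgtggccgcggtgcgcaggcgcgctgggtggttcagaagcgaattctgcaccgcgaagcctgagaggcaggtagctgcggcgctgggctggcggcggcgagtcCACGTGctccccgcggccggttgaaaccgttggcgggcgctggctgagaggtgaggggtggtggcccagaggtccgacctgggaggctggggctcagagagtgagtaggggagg
NOP10, chr15:34343087-34343386, minus strand: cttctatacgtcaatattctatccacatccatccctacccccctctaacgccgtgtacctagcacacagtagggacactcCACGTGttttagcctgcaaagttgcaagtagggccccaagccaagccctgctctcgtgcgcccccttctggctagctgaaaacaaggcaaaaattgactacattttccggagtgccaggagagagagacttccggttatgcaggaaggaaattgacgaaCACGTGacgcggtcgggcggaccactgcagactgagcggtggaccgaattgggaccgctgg
RRN3, chr16:15094286-15094585, minus strand: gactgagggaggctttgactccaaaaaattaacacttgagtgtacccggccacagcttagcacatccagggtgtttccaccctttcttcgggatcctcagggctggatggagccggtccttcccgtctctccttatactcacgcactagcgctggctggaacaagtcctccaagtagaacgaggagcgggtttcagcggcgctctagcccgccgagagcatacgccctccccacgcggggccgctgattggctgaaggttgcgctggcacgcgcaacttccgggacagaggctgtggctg
POLR1A, chr2:86105837-86106136, minus strand: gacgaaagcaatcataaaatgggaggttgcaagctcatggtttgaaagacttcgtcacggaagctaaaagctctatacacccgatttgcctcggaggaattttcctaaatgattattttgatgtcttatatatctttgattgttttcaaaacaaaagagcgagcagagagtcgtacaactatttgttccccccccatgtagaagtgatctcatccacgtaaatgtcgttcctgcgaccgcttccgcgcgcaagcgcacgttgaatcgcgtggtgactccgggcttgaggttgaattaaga

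In MRTO4 the E-box began 14 bases after the start site, in LYAR 64 bases before it and in NOP10 170 and 11 bases before it. The windows of POLR1A and RRN3 held none. IMP4 was the other member with 2 matches, and it was not called in HT-29 cells.

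The rest of the pathway was followed in 130 further genes of ribosome biogenesis. In HT-29 cells 27 of them (20.8%) were called lower and 4 (3.08%) higher, with a median log2FC of -0.22, where 14.8% and 16.8% of all loci were called. Over the alternatives between 15 and 45 of them were lower and between 2 and 14 higher, with a median between -0.45 (deposited FPKM) and 0.04 (total fragments only). The count of 45 was by the deposited FPKM, without an interval. Of 44 further small-subunit genes 9 were lower and 1 higher, and of 48 further 60S genes 10 were lower and 2 higher. WDR46, a processome protein whose locus is shared with MIR6873, was the lowest of the small-subunit list, with 85 fragments untreated and 31 with SCS, a log2FC of -1.62 (-2.33 to -1.08), and EMG1, an rRNA methyltransferase whose locus is shared with C1S and RP3-461F17.3, was the highest at 1.04 (0.38 to 1.87). Among the 60S genes, LAS1L, an endonuclease subunit, was the lowest at -1.42 (-2.01 to -0.94) and CEBPZ the highest at 0.89 (0.41 to 1.43). Of 14 further genes of RNA polymerase I and rDNA transcription 3 were lower and 1 higher, with a median of 0.21. This list also holds subunits shared with other RNA polymerases, so its counts do not describe RNA polymerase I alone. CD3EAP, a polymerase subunit, had 28 fragments untreated and 3 with SCS, a ratio of 0.0912 (0.0177 to 0.295), and TAF1A, a subunit of the promoter selectivity factor, had 9 and 24, at 1.04 (0.03 to 2.47). Of 10 assembly factors of snoRNPs 3 were lower and 0 higher, with SHQ1, the chaperone of dyskerin, lowest at -1.70 (-3.86 to -0.60) and ZNHIT3 highest at 0.54 (-0.07 to 1.22). The RNA exosome, which trims rRNA precursors, had 2 of 14 genes lower (14.3%, near the share of all loci) and 0 higher, from EXOSC2 at -1.77 (-2.81 to -1.07) to EXOSC1 at 0.57 (-0.07 to 1.28).

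Targets of MYC outside ribosome biogenesis were called lower in 8 of 14 cases (57.1%) and higher in 2 (14.3%, near the share of all loci) in HT-29 cells. Their median log2FC was -0.62. Over all loci 14.8% were called lower and 16.8% higher. LDHA, lactate dehydrogenase A, had 761 fragments untreated and 200 with SCS, a log2FC of -2.15 (-2.39 to -1.93). MTHFD2, an enzyme of mitochondrial folate metabolism, had 243 and 642, at 1.16 (0.95 to 1.39). The MYC network, as listed here, holds partners, paralogues and antagonists of MYC and genes that act on the MYC protein. Of its 13 genes tested 0 were called lower and 4 higher (30.8%, against 16.8% of all loci), with a median of 0.37. By the deposited FPKM, without an interval, 3 were lower and 4 higher, and the median was -0.13. MYCL, a paralogue of MYC, had 4 and 23 fragments, at 1.88 (0.74 to 4.28), and MXD4, an antagonist whose locus is shared with MIR4800, was the lowest at -0.67 (-1.52 to 0.06) and was not called.

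**Figure D3:**
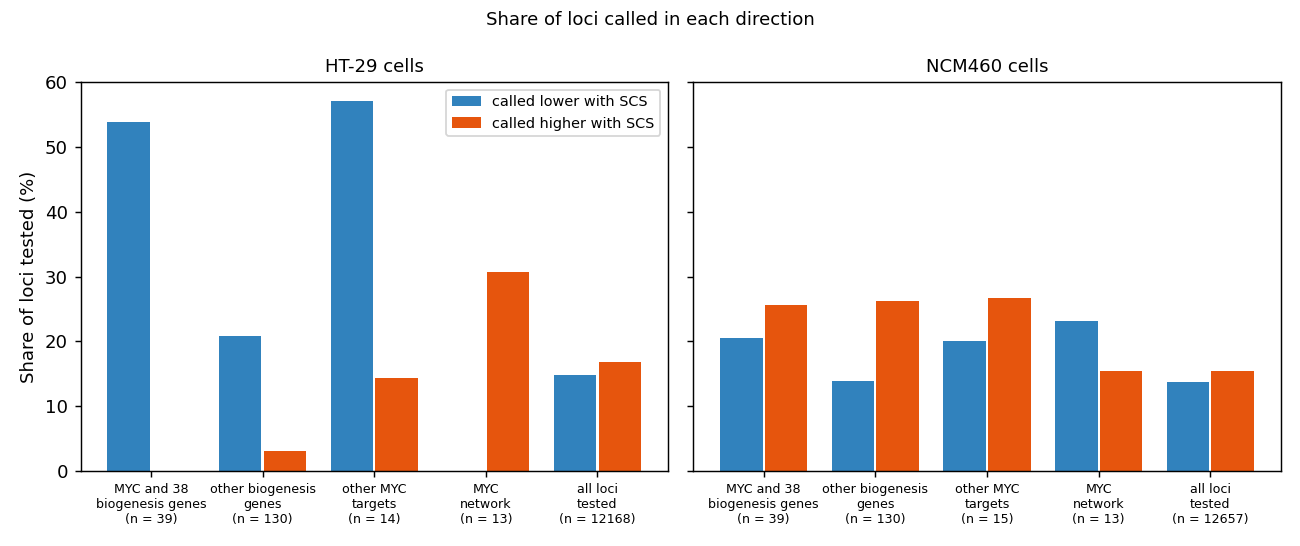
Share of loci called lower (blue) and higher (orange) with SCS in each line, in percent of loci tested, for the members, the other biogenesis genes, the other MYC targets, the MYC network and all loci tested. In HT-29 cells the members' blue bar stands at 53.8% and all loci at 14.8%, and in NCM460 cells the members' bars stand for 8 and 10 of 39 genes.

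In NCM460 cells the members did not move one way. MYC had 316 fragments untreated and 389 with SCS, or 406 and 360 CPM, and was not called at -0.17 (-0.39 to 0.04). Of the 39 members 8 were called lower and 10 higher, where 13.7% and 15.3% of the 12657 loci tested were called lower and higher, and the median log2FC of the members was 0.23, against 0.03 over all loci. Their sum was 0.416% of nuclear fragments in the control (0.398 to 0.434) and 0.545% with SCS (0.527 to 0.564). NPM1 had 151 and 737 of these fragments, and without it, a step taken after its values were seen, the sum was 0.386% (0.369 to 0.403) and 0.427% (0.411 to 0.443) of nuclear fragments, or 2517 and 2452 CPM, so that its direction turned with the scale. The mitochondrial share was 62.3% and 46.3% in these libraries, and the number called lower was 4 when nuclear fragments alone set the library total and 0 when the total alone did, with 13 and 20 called higher. Over all loci, 1236 of 13106 were lower and 2383 higher with nuclear totals. With the total alone 248 of 12096 were lower and 3944 higher. The nucleolar proteins were higher in 4 of 5 cases, while the 60S path had 4 lower and 1 higher of 11, RNA polymerase I 2 lower and 1 higher of 6, and the small-subunit genes 2 lower and 2 higher of 9. The box C/D and box H/ACA proteins had 1 higher each and 0 lower.

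**Figure D4:**
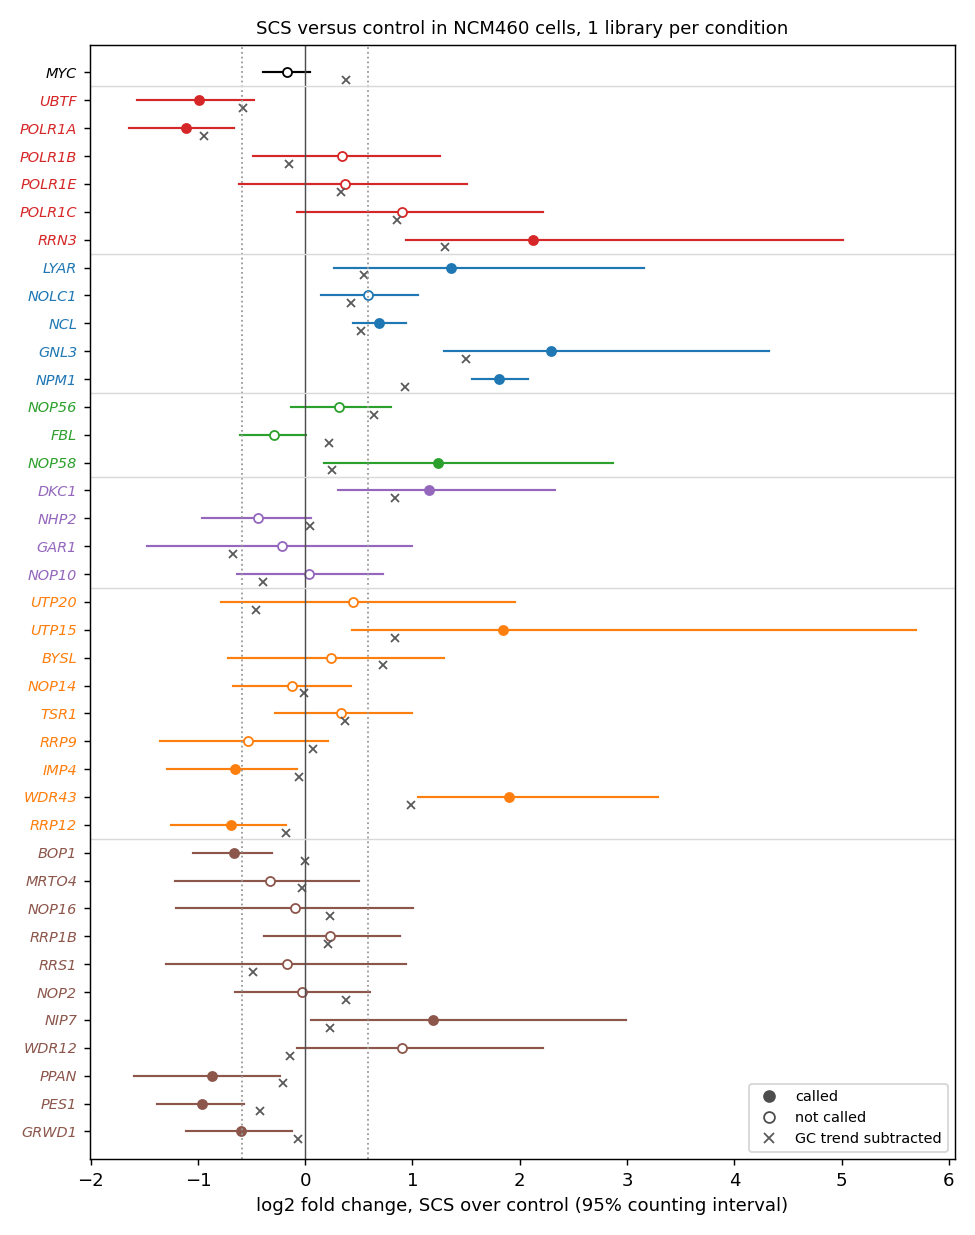
Log2 fold change of each member in NCM460 cells, SCS over control, with 95% counting intervals, drawn as for HT-29 cells. Grey crosses mark the values after a smooth trend on GC content over all loci was subtracted. Filled points lie on both sides of 0, from POLR1A at -1.12 to GNL3 at 2.29.

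GC content of the transcript went with the values in NCM460 cells. Across 12600 loci Spearman's rho between log2 fold change and GC content was -0.64, and across the 39 members it was -0.83, against -0.12 and -0.09 in HT-29 cells. The points of a line share their libraries, and genes are not independent replicates. When a smooth trend on GC content over all loci was subtracted, 1 member was called lower in NCM460 cells (POLR1A) and 5 higher (NOP56, NPM1, WDR43, RRN3 and GNL3), where 6.15% of loci were called lower and 6.44% higher. The same step left 23 members lower and 0 higher in HT-29 cells, where 16.1% and 14.5% of loci were called. With the trend subtracted, MYC in NCM460 cells had a log2FC of 0.38 (0.16 to 0.60), which stayed under 1.5-fold.

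**Figure D5:**
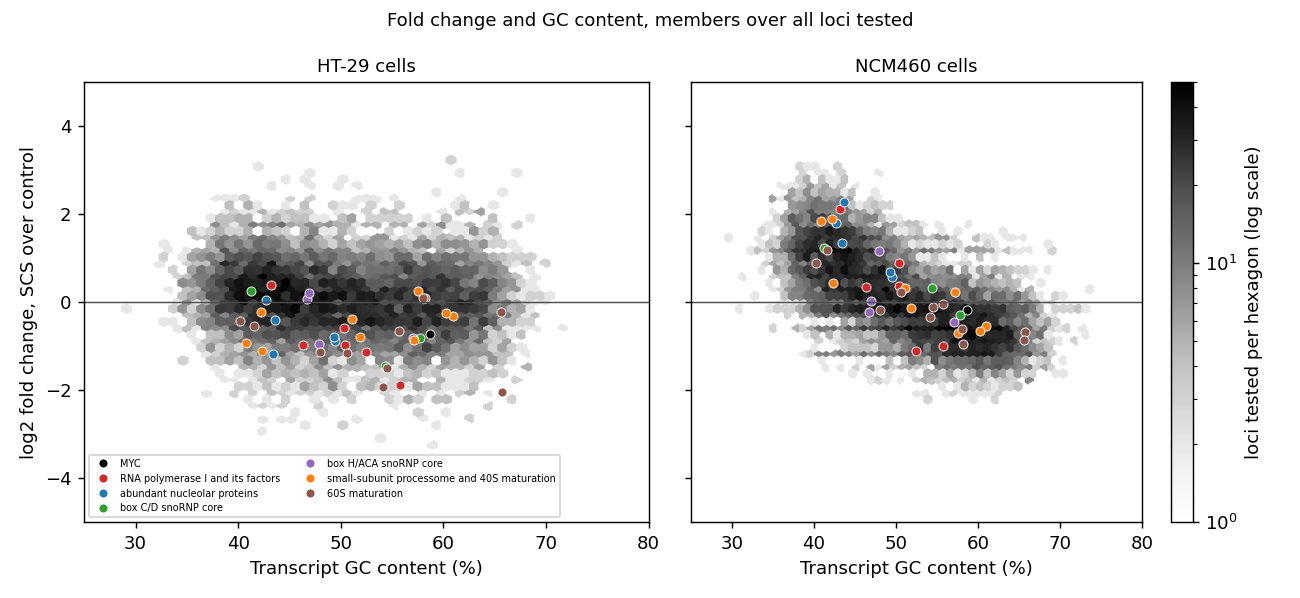
Log2 fold change of SCS over control against the GC content of the transcript in percent, with grey hexagons for all loci tested (shade on a log scale) and coloured points for the members by role. In NCM460 cells the points run down from upper left to lower right with a Spearman's rho of -0.83 across members, and in HT-29 cells rho is -0.09.

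Among the nucleolar proteins in NCM460 cells, NPM1 had 151 fragments untreated and 737 with SCS, or 194 and 681 CPM, a log2FC of 1.80 (1.56 to 2.08) that stood at 0.93 (0.69 to 1.21) with the GC trend subtracted. GNL3 had 5 and 43 fragments, at 2.29 (1.30 to 4.32), and 1.5 (0.51 to 3.54) with the trend subtracted. NPM1 and GNL3 were thus called under both settings. NCL had 201 and 450 fragments, or 258 and 416 CPM, at 0.68 (0.45 to 0.94), and LYAR had 6 and 25, at 1.36 (0.27 to 3.16), and neither was called with the GC trend subtracted, at 0.52 and 0.55. NOLC1 had 63 and 132 fragments and a log2FC of 0.58 (0.15 to 1.05), just under the limit of 1.5-fold.

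RNA polymerase I again had UBTF and POLR1A among its lower genes in NCM460 cells. POLR1A (chr2:86020216-86106155) had 94 fragments untreated and 59 with SCS, or 121 and 54.6 CPM, a log2FC of -1.12 (-1.64 to -0.66) and of -0.94 (-1.47 to -0.49) with the GC trend subtracted. UBTF had 73 and 50 fragments, or 93.7 and 46.2 CPM, at -0.99 (-1.57 to -0.48), and at -0.58 (-1.16 to -0.07) with the trend subtracted, just under the limit. RRN3 went the other way, with 3 fragments untreated and 26 with SCS, a ratio of 6.24 (1.91 to 32.2). POLR1B, POLR1C and POLR1E had 19 and 34, 10 and 28 and 13 and 24 fragments and were not called, at 0.34, 0.90 and 0.37.

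Of the other calls in NCM460 cells, the 5 higher ones rested on few control fragments. UTP15 had 2 fragments untreated and 16 with SCS, a ratio of 5.76 (1.35 to 51.7). WDR43, which acts early on the nascent precursor, had 9 and 53 fragments, a log2FC of 1.9 (1.05 to 3.29). DKC1 had 12 and 40, at 1.16 (0.30 to 2.33), NOP58 had 7 and 26, at 1.23 (0.18 to 2.87), and NIP7 had 6 and 22, at 1.19 (0.05 to 2.99). Of UTP15, WDR43, DKC1, NOP58 and NIP7 only WDR43 was called with the GC trend subtracted, at 0.99 (0.14 to 2.38). NOP56 had 62 and 108 fragments and was called higher at 0.64 (0.18 to 1.12) only with the GC trend subtracted, against 0.32 (-0.14 to 0.80) without. These 5 genes called higher have transcripts of 40.8% to 47.9% GC, and the lower calls of the small-subunit and 60S paths, with more fragments, have transcripts of 57.6% to 65.7% GC. PES1 had 126 and 89 fragments, at -0.96 (-1.38 to -0.57), BOP1 137 and 119, at -0.67 (-1.04 to -0.31), and RRP12 66 and 56, at -0.69 (-1.25 to -0.17). PPAN, GRWD1 and IMP4 were called lower at -0.87, -0.60 and -0.66. With the GC trend subtracted none of these 6 was called, and the lowest was PES1 at -0.42.

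Of 130 further biogenesis genes in NCM460 cells 18 were called lower (13.8%) and 34 higher (26.2%), with a median log2FC of 0.27. The share called lower was near the 13.7% of all loci, and 15.3% of all loci were called higher. Over the alternatives between 1 and 40 were lower and between 12 and 61 higher, with a median between -0.22 (deposited FPKM) and 0.89 (total fragments only). The count of 40 was by the deposited FPKM, without an interval. With the GC trend subtracted 5 of 129 were lower and 12 higher, with a median of 0.05. The further small-subunit genes had 3 lower and 14 higher of 44, and the further 60S genes 9 lower and 14 higher of 48. DDX49, a helicase, had 33 and 16 fragments, at -1.39 (-2.48 to -0.62), and WDR75, a processome protein, had 2 and 24, a ratio of 8.64 (2.15 to 75.4). RRP1 had 38 and 22 fragments, at -1.18 (-2.09 to -0.47), and DDX18, a helicase of the 60S path, had 4 and 41, at 2.46 (1.42 to 4.83). The smaller lists also held calls in both directions. Further genes of RNA polymerase I and rDNA transcription had 2 lower and 2 higher of 14 (14.3% each, near the shares of all loci). They lay between ZNRD1, a polymerase subunit whose locus is shared with ZNRD1-AS1_3, and TAF1A. ZNRD1 had 27 and 18 fragments, at -0.97 (-2.01 to -0.15), and TAF1A 3 and 15 fragments, a ratio of 3.60 (1.02 to 19.4). The snoRNP assembly factors had 2 lower (20%) and 1 higher (10%) of 10. RUVBL2, an ATPase, was the lowest, with 210 and 169 fragments and -0.78 (-1.09 to -0.49). TGS1, which methylates the caps of small nuclear and nucleolar RNAs, was the highest, with 1 and 17 fragments, a ratio of 12.2 (1.92 to 512). The control level of TGS1, under 3 fragments, is not resolved. The exosome had 2 lower (14.3%, near the share of all loci) and 3 higher (21.4%) of 14. Its genes lay between EXOSC4, whose locus is shared with MIR6847, at -2.11 (-3.37 to -1.37), and its nuclease DIS3, at 1.97 (1.05 to 3.61). Of the MYC network 3 of 13 were lower (23.1%) and 2 higher (15.4%, near the share of all loci). They lay between MNT, an antagonist of MYC, with 46 and 11 fragments and -2.31 (-3.64 to -1.57), and MXD1. The locus of MXD1, shared with SNRNP27, had 2 and 30 fragments, a ratio of 10.8 (2.74 to 93.3). Of the other MYC targets 3 of 15 were lower (20%) and 4 higher (26.7%). They lay between SRM, spermidine synthase, at -1.44 (-2.05 to -0.95), and HSPD1, a mitochondrial chaperonin, at 2.34 (2.03 to 2.70).

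Set side by side, 3 members were called lower in both lines (BOP1, POLR1A and UBTF), 14 in HT-29 cells with no call in NCM460 cells, and 4 were called lower in HT-29 and higher in NCM460 cells (NCL, DKC1, UTP15 and LYAR). Of the 10849 loci tested in both lines, 3.36% were lower in both, 10% lower in HT-29 cells with no call in NCM460 cells and 1.97% lower in HT-29 and higher in NCM460 cells. With the GC trend subtracted, POLR1A was the 1 member lower in both lines and NOP56 the 1 with opposite calls, where 1.55% and 1.24% of loci had these calls. Without that step no call was made in either line for GAR1, NOP10, WDR12, RRP9, POLR1C, POLR1E and TSR1. Spearman's rho between the members' log2 fold changes in the 2 lines was 0.11 over 39 genes, as a description. The one test the design allowed was of a treatment effect common to HT-29 and NCM460 cells, in which the lines served as blocks, with 1 residual degree of freedom in edgeR's quasi-likelihood test. It called 0 members, and 9 of 12942 loci in all (0.0386% lower and 0.0309% higher), at an adjusted p under 0.05. By edgeR 3 of the 39 members had an unadjusted p under 0.05, and 695 of the 12942 loci did. By this edgeR test they were UBTF, with a shared log2FC of -1.48 (adjusted p = 0.740), BOP1, at -1.36 (adjusted p = 0.823), and POLR1A, at -1.15 (adjusted p = 0.918). DESeq2 called 27 of 12942 loci, and 3 members and 230 loci in all had an unadjusted p under 0.05 by its Wald test. It gave an adjusted p to 11 of the 39 members and called 0 of these, and the other 28, UBTF among them, were filtered out and could not be called. None of the shared changes of members therefore passed the test.

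The untreated lines, which the paper grew with unlike shares of serum, were compared as well. MYC was 406 CPM in the NCM460 control and 136 CPM in the HT-29 control, a log2FC of 1.57 (1.34 to 1.82) for NCM460 over HT-29. Of the 39 members 10 were called higher in NCM460 cells, where 23.1% of 12691 loci were, a share of the members near that of all loci, and 14 lower, where 25.3% were. The higher ones were MYC, FBL, NHP2, NOP10, BOP1, PES1, RRP9, RRP12, PPAN and IMP4. BOP1, at 2.20 (1.83 to 2.67), and PES1, at 2.10 (1.72 to 2.57), had the highest values. Both belong to PeBoW, whose remaining subunit WDR12 was not called at -0.65 (-1.87 to 0.30). The lower ones included NPM1, at -0.98 (-1.24 to -0.73), NCL, at -0.78 (-1.01 to -0.56), DKC1, at -2.21 (-3.29 to -1.46), and GNL3, at -2.35 (-4.25 to -1.31). This contrast too followed GC content, with a Spearman's rho of 0.51 across 12648 loci and of 0.76 across the members. Its control library is the one that the comparison of SCS with control in NCM460 cells also uses.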

How the data were processed

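According to the submitters' protocol and the paper, RNA was sequenced from both ends of each fragment, and adapter, poly-N and low-quality reads were discarded. The processing notes list bcl2fastq 2.17.1.14, cutadapt 1.9.1, Bowtie2, HTSeq 0.6.1 and hg19, the paper names Cuffdiff, and the coordinates in the table are those of GRCh38, as 31 of 39 members had the start and end of GENCODE release 29. Of the other 8 members, FBL and RRN3 are on alternate scaffolds. The authors deposited a signal column per library, fragments per gene divided by a size factor of the library, and an FPKM column, by name fragments per kilobase scaled by library size. The FPKM did not follow the fragments by the same factor in all genes. In HT-29 cells MYC had 278 and 197 fragments and 51.1 and 32.1 FPKM, and WDR12 43 and 37 fragments and 8.10 and 1.68 FPKM. Results by FPKM therefore differ from the others by more than scaling. The design had assumed whole counts. The deposited signal was divided by the worth of 1 fragment (0.686, 0.577, 2.04 and 1.33 for untreated and treated HT-29 and untreated and treated NCM460 cells), which gave between 99.9% and 100% whole numbers within 0.1 fragment. Of 64962 rows, 26 without a gene name, with between 0.00581% and 0.0352% of the fragments, were left out. Adjacent rows with identical values were merged into 18650 loci, 1812 with more than 1 gene.

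TMM factors (edgeR 4.0.16 in R 4.3.3) over all 4 libraries were 1.24, 1.5, 0.578 and 0.935. Log2 fold changes had a prior count of 2, and loci needed a mean of 1 CPM over the libraries compared. The edgeR test, the only count test that could be fitted, had line and treatment as terms and Benjamini-Hochberg adjustment, with DESeq2 1.42.0 as alternative. It called 9 loci, or genes, on the recovered fragments. The paper speaks of biological replicates, and 1 library per condition was analysed here. The p-values of the edgeR test therefore rest on the spread between the lines' responses to SCS. GC content came from GENCODE 29, for 98.9% of loci, and its trend was a lowess curve of span 0.3. Folds and the edgeR test were tested on simulated counts with known changes. For the edgeR test both simulated lines responded alike, and changes were set only in loci with many fragments. How it performs with unlike responses of the lines or few fragments was therefore not tested. The members were given, and the members and lists were chosen with earlier results of these data known. Genes named are all members, the highest and lowest of each list per line at a mean of 5 CPM, and genes merged with them. Levels under 3 fragments in a library (1.47, 1.25, 3.85 and 2.77 CPM in the order above) are not resolved. Of the members, 8 share their locus with overlapping genes: NOP56, NOP58 (SNORD70), DKC1 (SNORA36A, SNORA56), BOP1 (MIR7112), RRS1 (ADHFE1, C8orf46), GNL3 (SNORD19, SNORD19B), PPAN (P2RY11, PPAN-P2RY11) and GRWD1 (CTC-273B12.7, CYTH2, KCNJ14).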

Additional observations from a re-analysis of the deposited data

Results flagged for a closer look

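The changes with SCS in NCL, DKC1, UTP15 and LYAR ran in opposite directions in the lines, lower in HT-29 and higher in NCM460 cells, each past 1.5-fold with an interval that excluded 0. The log2 fold change in NCM460 cells exceeded that in HT-29 cells by 1.47 for NCL, 2.10 for DKC1, 2.76 for UTP15 and 2.54 for LYAR. UTP15 had 2 fragments in the NCM460 control, a level under 3 fragments that is not resolved, so the size of its difference is not resolved either. With 1 library per condition the difference between the lines was not tested. With the GC trend subtracted, none of the 4 was called in NCM460 cells, while all 4 were called lower in HT-29 cells.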

How the results depend on the processing

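No paired analysis was possible because the labels carry no replicate numbers, apart from the shared test, whose line term sets treated against untreated cells within a line. With 1 library per condition no replicate could be left out. In HT-29 cells the number of members called lower was 21 and lay between 13 and 25 over 12 alternatives, with a median log2 fold change between -0.94 and -0.51. The count of 25 was by the deposited FPKM. Of the 21 genes, 11 kept their call in all 11 alternatives that apply to a single gene. Scaling by total fragments only, which shifted the median of all loci by 0.25 in HT-29 and 0.60 in NCM460 cells, gave 13 members lower and 1 higher in HT-29 cells, 0 lower and 20 higher with a median of 0.87 in NCM460 cells, and MYC at -0.45 and 0.52. Read against that shift, 8 members called lower in HT-29 cells lost their call. Of all loci, this scaling called 1116 of 12658 lower and 3149 higher in HT-29 cells. In NCM460 cells it called 248 of 12096 lower and 3944 higher. Thinning to equal nuclear depth gave MYC in HT-29 cells -0.44. MYC was called there under neither of these settings. In NCM460 cells, 8 lower and 10 higher became 4 lower with nuclear totals (shift of all loci 0.19) and 1 lower and 5 higher with the GC trend subtracted. They became 4 lower with an expression trend subtracted and 17 lower with a median of -0.22 from the deposited FPKM (shift -0.30). Over the 31 members not merged with another gene 5 were lower. Of all loci in NCM460 cells, 1740 of 12657 were lower in the main setting, 1236 of 13106 with nuclear totals and 775 of 12600 with the GC trend subtracted. With the expression trend subtracted 1544 of 12657 were lower, and by the deposited FPKM 4652 of 12657. Calls by FPKM needed the 1.5-fold limit alone and no interval, so their counts are not directly comparable with the others. In NCM460 cells MYC stood at 0.38 with the GC trend and at 0.13 with the expression trend subtracted. Among single genes in NCM460 cells, NCL was at -0.12 by FPKM, and BOP1 at 0.017, GRWD1 at 0.077 and IMP4 at 0.012 by total fragments only, each with its sign turned. The shared change was called at 27 loci by DESeq2, 7 with upper-quartile scaling and 8 over all loci, with 0 members in each. The causes were not tested. Depth limits the NCM460 control most.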
